A study of Rattus norvegicus with 24 samples.

Results

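The array carried 48 genes for receptors of serotonin, dopamine, noradrenaline and adrenaline, acetylcholine and histamine, of 4736 genes with a probe set annotated to a single gene. They were taken by symbol (those starting with Htr, Drd, Adra, Adrb, Chrm, Chrn or Hrh), which matched 68 probe sets, and each gene was represented by its probe set with the highest mean over all arrays. RNA from rat hippocampus had been hybridised to 24 Affymetrix rat U34 (set A) arrays. The arm titled TOL is described as tolerant of hypoxia and the arm titled SHAM as sensitive to it. Samples of both were taken at 0, 1, 3, 12, 24 and 48 h counted from the ischemia operation, and 0 h served as the baseline of its arm. Each of the 12 groups held 2 arrays, from a first and a second experiment. The sources used here give no strain, age or sex, nor what made an arm tolerant. They do not state whether replicate arrays stand for different animals, and a p-value below reflects array-to-array spread that may be technical.

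These receptors carry the signals of the fibres that reach the hippocampus from the raphe, the locus coeruleus, the septum and the midbrain, and some sit on local cells or nerve endings. Most are G protein-coupled and raise cyclic AMP, lower it or activate phospholipase C. The nicotinic subunits and Htr3a instead build ion channels that the transmitter opens directly. In hippocampal slices and in animals such receptors are known to set the excitability of pyramidal neurons and interneurons and to shape plasticity and memory.

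Over all probe sets, replicate arrays had correlations of 0.921 to 0.954 and a median SD of 0.297 (log2). The arrays were hybridised on 2 days of 12 arrays. The first day held SHAM except 1 array of SHAM at 48 h, plus 1 array of TOL at 0 h, so day and arm nearly coincide. Within an arm the 6 fluidics runs inferred from the recorded times followed the hours after the operation. After 1 h, no time shared a run with 0 h of its own arm, so run and time cannot be told apart there. The fluidics records of the 4 TOL arrays at 24 and 48 h carry an abort by the user. Markers of hippocampal principal neurons, astrocytes, oligodendrocytes and microglia were present, as described below.

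Values are normalised intensity in arbitrary units, and a noise level of 41.2 units was taken from the probe sets that averaged 0 or less. Different probe sets bind their targets differently, so the level of one receptor cannot be compared with that of another. The mean over 24 arrays lay above the noise level for 25 of the 48 receptor genes (52.1%), against 3137 of the 4736 genes of the whole array (66.2%). All 24 arrays lay above it for 16 receptor genes (33.3%), against 2478 genes of the array (52.3%). No array did for 13, and the mean was at or below 0 for 10. The last receptors inside the limit were Drd1, at 58.0 units, and Chrnd, at 47.2. The first outside were Chrna3, at 39.2 units, and Htr4, at 35.8.

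**Figure D1:**
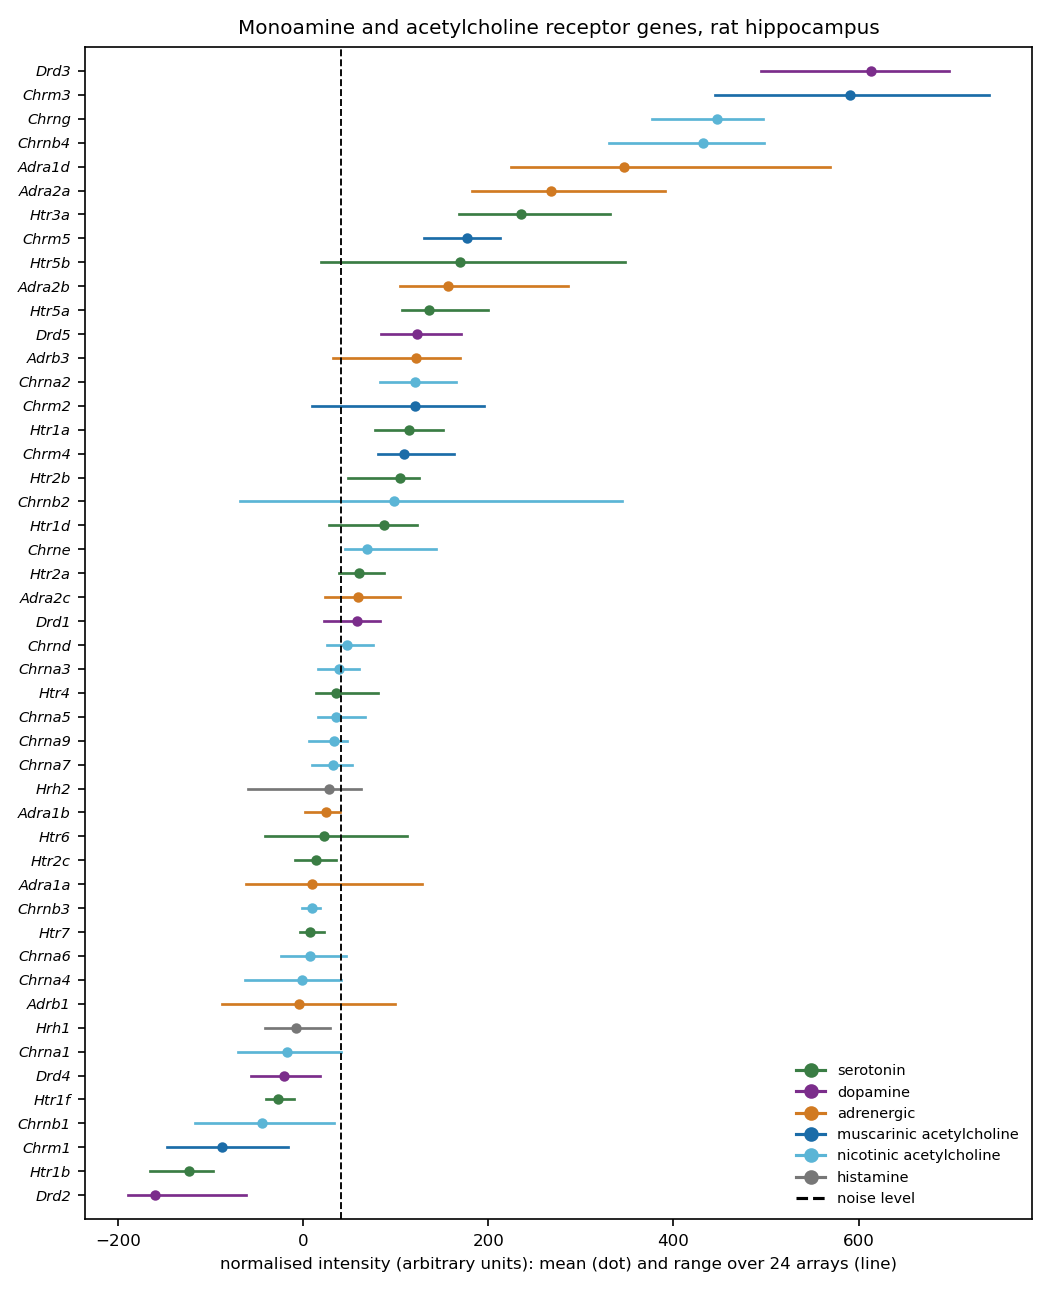
Mean (dot) and range over 24 arrays (line) of the normalised intensity, in arbitrary units, of each of the 48 receptor genes, coloured by family, with the noise level of 41.2 units dashed. Means run from 613 units for Drd3 to -160 units for Drd2, and 25 lie above the dashed line; the order of probe sets is not an order of abundance.

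Among the 13 serotonin receptors, 7 had a mean above the noise level and 4 were above it on all arrays. These were the channel subunit Htr3a (235 units), Htr5b (170), Htr5a (136), the phospholipase C-coupled Htr2b (104) and Htr2a (60.7), and the cyclic AMP-lowering Htr1a (114) and Htr1d (87.0). The receptors that raise cyclic AMP, Htr4, Htr6 and Htr7, lay below it, at 35.8, 22.3 and 7.41 units. Of 5 dopamine receptors, 3 were above noise: Drd3 (613 units), which lowers cyclic AMP, and Drd5 (123) and Drd1 (58.0), which raise it. Drd2 and Drd4 read -160 and -21.1 units.

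Of 8 adrenergic receptors, 5 were above noise. Adra1d, which signals through phospholipase C, read 346 units; the 3 cyclic AMP-lowering receptors Adra2a, Adra2b and Adra2c read 267, 157 and 59.1, and Adrb3, best known from fat tissue, read 122. Of 5 muscarinic receptors, 4 were above noise, at 591 units for Chrm3, 177 for Chrm5, 120 for Chrm2 and 109 for Chrm4. Chrm1, known as an abundant muscarinic receptor of pyramidal neurons, read -87.6 units here, with its highest array at -16.9, and its other probe set averaged -199. Both histamine receptors were below noise, Hrh2 at 28.3 units and Hrh1 at -8.24.

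Of 15 nicotinic subunits, 6 were above noise. Chrng (447 units), Chrne (69.3) and Chrnd (47.2) are subunits of the receptor of skeletal muscle. Chrnb4 (432 units) pairs with Chrna3 in autonomic ganglia, Chrna2 (121) marks a class of interneurons in mouse hippocampus, and Chrnb2 (97.9) forms the most common brain receptor with Chrna4. Chrna4 read -0.975 units, and Chrna7, whose product forms the other main nicotinic receptor of the hippocampus, read 32.3. The muscle marker list had 9 genes on the array and 7 tested, of which 5 stood above noise. Beside this, 5138 of all 7092 probe sets tested and 66.2% of all genes of the array had a mean above noise. The summed levels of the list were 1214 to 2227 units in TOL and 1569 to 2169 in SHAM. Its genes Myh2 and Myod1 lay below noise, at 12.4 and 10.6 units. The part of this list in the levels of Chrng, Chrne and Chrnd was not tested.

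For 15 receptor genes the array held several probe sets, and for 10 of them the chosen one was above noise. In only 2 of these, Chrm2 and Chrm3, was another probe set above noise too. In the other 8 it was not: Drd3 read 613 units with the chosen probe set and 37.4 with the other, Chrnb4 432 and -49.4, and Adra1d 346 and -11.1. For Htr3a, the 2 other probe sets averaged -15.4 and -54.2 units, against 235 for the chosen one. The annotation does not settle which probe set of such a pair reports the gene, and levels and changes of these receptors are those of the chosen probe set.

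With both arms pooled, 8 receptor genes passed the limma F test of the 5 later times against 0 h, at a Benjamini-Hochberg adjusted p under 0.05. That is 19% of the 42 receptor genes tested, against 27.5% of all 7092 probe sets tested. Among the receptors above noise it was 6 of 25, against 32.2% of the 5138 probe sets above noise. Drd5, Chrm3, Htr1a, Htr5b, Adra1d and Htr2a were above noise, and Chrna4 and Chrna3 below it. With the arms pooled, 5 receptors were called lower and 0 higher at 24 h, beside 8.23% and 8.93% of all probe sets. At 48 h 7 were called lower and 0 higher, beside 10.2% and 10.7%. At 12 h, 1 rose (background 5.77%) and 2 fell (5.57%), and at 1 and 3 h limma called none, against 2% and 3.95% of all probe sets in either direction, with an unadjusted p under 0.05 for 3 and 4 receptors.

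Over the 25 receptors above noise, the median log2 difference from 0 h was 0.07 at 1 h, -0.04 at 3 h, -0.11 at 12 h, -0.23 at 24 h and -0.20 at 48 h. Over all tested probe sets it was -0.04 at both 24 and 48 h. At 24 h, 20 of the 25 were lower than at 0 h, and at 48 h 19 were, against 54.3% and 53.3% of the 5138 probe sets above noise. Markers of hippocampal principal neurons fell at the same times. Of 10 tested, all above noise, 7 fell at 24 h (median -1.08) and 8 at 48 h (median -1.22), beside 8.23% and 10.2% of all probe sets. The summed level of these markers was 8603 to 12054 units at 24 h and 8527 to 10406 at 48 h, against 13699 to 16926 at 0 h. Nr3c2, the mineralocorticoid receptor, averaged 105 ± 26.5 units at 48 h, against 511 ± 60.7 at 0 h (SD, n = 4), and Hpca, the calcium sensor hippocalcin, 1607 ± 259 against 3603 ± 596. Fewer cells of a type and less RNA per cell cannot be told apart in such tissue samples, and the part of these markers in the receptor values was not tested.

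**Figure D2:**
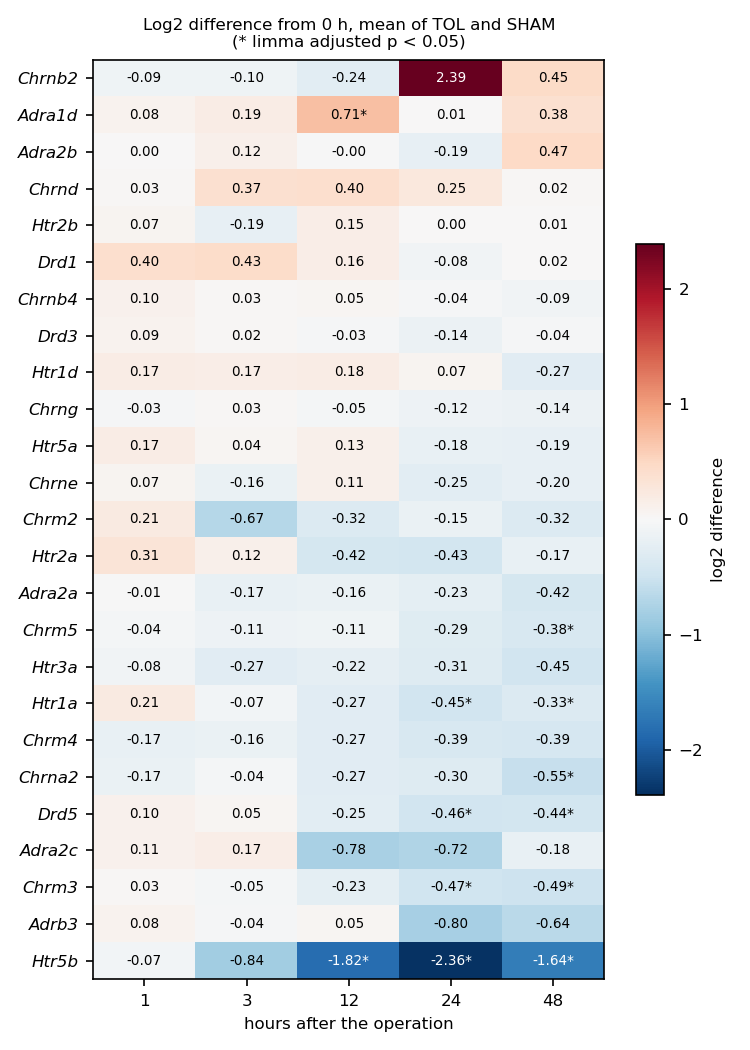
Log2 difference from 0 h, as the mean of TOL and SHAM, at 1, 3, 12, 24 and 48 h for the 25 receptor genes with a mean above noise; red is higher, blue lower, and an asterisk marks a limma adjusted p under 0.05. Htr5b has the darkest blue at 12 to 48 h (-1.82, -2.36 and -1.64); the dark red of Chrnb2 at 24 h (2.39) has no asterisk.

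The promoters of Chrm3, Drd5 and Htr5b, whose chosen probe sets fell late, and of Adra1d, whose chosen probe set rose at 12 h, are shown. For Chrm3 and Adra1d a second probe set went the other way, as described below. Each is the 250 bases before the RefSeq start of the gene on GRCr8, 5′ to 3′ on the gene's strand. Chrm3 lies on the plus strand (chr17:64696677-64696926), Drd5 on the minus strand (chr14:76703345-76703594), Htr5b on the minus strand (chr13:35252587-35252836) and Adra1d on the minus strand (chr3:139262332-139262581). Capitals mark matches, on either strand, to the letters GGGCGG of a GC box or to those of the next 3 motifs. For the TATA box these were TATAAA, read on both strands as well. The core of the cyclic AMP response element was searched as TGACG. For the EGR site, which can overlap a GC box, the letters were GCGNGGGCG.
Chrm3: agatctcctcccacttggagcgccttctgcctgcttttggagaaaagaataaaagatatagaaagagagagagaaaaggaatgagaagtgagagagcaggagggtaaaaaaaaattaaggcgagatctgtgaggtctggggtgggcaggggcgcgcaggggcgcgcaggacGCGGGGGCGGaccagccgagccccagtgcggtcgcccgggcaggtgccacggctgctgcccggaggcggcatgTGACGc
Drd5: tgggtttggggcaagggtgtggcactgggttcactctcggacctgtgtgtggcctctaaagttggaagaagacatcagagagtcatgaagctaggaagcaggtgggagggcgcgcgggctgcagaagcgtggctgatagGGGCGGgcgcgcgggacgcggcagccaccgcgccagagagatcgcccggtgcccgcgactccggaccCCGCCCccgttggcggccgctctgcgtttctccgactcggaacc
Htr5b: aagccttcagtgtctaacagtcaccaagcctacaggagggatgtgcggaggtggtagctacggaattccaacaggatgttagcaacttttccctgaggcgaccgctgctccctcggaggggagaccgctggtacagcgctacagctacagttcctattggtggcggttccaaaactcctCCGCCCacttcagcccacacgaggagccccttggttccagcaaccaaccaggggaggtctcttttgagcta
Adra1d: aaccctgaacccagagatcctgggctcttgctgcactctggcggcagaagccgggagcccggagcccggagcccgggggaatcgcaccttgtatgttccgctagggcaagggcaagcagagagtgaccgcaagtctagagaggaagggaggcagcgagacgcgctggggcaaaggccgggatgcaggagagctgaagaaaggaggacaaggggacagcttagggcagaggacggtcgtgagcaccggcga
The stretch of Chrm3 in capitals holds a GC box that overlaps its EGR site, and a cyclic AMP response core lies near the start. Drd5 held 2 GC boxes, Htr5b 1, and Adra1d no match to any of the 4 motifs. A GC box was present in 18 of the 37 receptor promoters in the RefSeq table (48.65%), against 30.47% of all 33469 promoters. The TATA box letters were in 1 (2.7%), against 12.93%, the cyclic AMP response core in 7 (18.92%, against 18.22%) and the EGR site in 2 (5.41%, against 4.29%). GC content was 60% in Chrm3, 67.2% in Drd5, 56.8% in Htr5b and 64% in Adra1d, against a median of 51.2% over all promoters. A match describes these letters and says nothing of binding.

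Chrm3, a phospholipase C-coupled muscarinic receptor, fell late in both arms. Chrm3 in TOL read 638 and 636 units (0 h), 649 and 741 (1 h), 625 and 609 (3 h), 572 and 610 (12 h), 486 and 477 (24 h) and 445 and 487 (48 h). Chrm3 in SHAM read 695 and 724 units (0 h), 705 and 647 (1 h), 653 and 708 (3 h), 591 and 517 (12 h), 505 and 468 (24 h) and 463 and 530 (48 h). All 8 arrays at 24 and 48 h lay below all 4 at 0 h. Pooled, the level was 484 ± 16.0 units at 24 h and 481 ± 36.9 at 48 h, against 674 ± 43.5 at 0 h (SD, n = 4). The log2 difference was -0.47 ± 0.08 (SE) at 24 h, 1.39-fold lower, with an adjusted p of 0.00111. At 48 h it was -0.49 ± 0.08, 1.40-fold lower, with an adjusted p of 0.000947. The F test gave an adjusted p of 0.0147 in TOL and 0.00828 in SHAM.

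A second, dimmer Chrm3 probe set, with a mean of 78.6 units and 20 of 24 arrays above noise, went the other way. It averaged 88.5 ± 10.2 units at 12 h and 92.0 ± 5.46 at 48 h, against 40.9 ± 23.4 at 0 h, where 2 of 4 arrays were below noise. The log2 difference was 1.29 at 12 h (adjusted p = 0.0446) and 1.35 ± 0.38 at 48 h (adjusted p = 0.0235), and its F test gave 0.0713. The late fall of Chrm3 is thus a result of the brighter probe set alone. The second probe set of Chrm2 averaged 63.1 units, above noise on all 24 arrays, and neither Chrm2 probe set passed the F test (adjusted p = 0.953 and 0.130).

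Drd5, a dopamine receptor that raises cyclic AMP, also fell late. Drd5 in TOL read 137 and 132 units (0 h), 160 and 171 (1 h), 156 and 155 (3 h), 115 and 124 (12 h), 112 and 103 (24 h) and 96.3 and 113 (48 h). Drd5 in SHAM read 127 and 149 units (0 h), 128 and 127 (1 h), 130 and 124 (3 h), 104 and 114 (12 h), 96.5 and 83.8 (24 h) and 93.6 and 98.6 (48 h). Every array at 24 and 48 h was below every array at 0 h. The pooled log2 difference was -0.46 ± 0.08 at 24 h (1.38-fold lower, adjusted p = 0.00165) and -0.44 ± 0.08 at 48 h (1.36-fold lower, adjusted p = 0.00231). The 48 h call was lost in 1 of 34 recomputed fits. The F test gave 0.00543 in TOL and 0.01 in SHAM. In TOL no single time passed (24 h, 0.121, and 48 h, 0.0747). The fitted TOL differences were 0.30 at 1 h and 0.21 at 3 h, then -0.32 at 24 h and -0.37 at 48 h.

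Htr1a, which lowers cyclic AMP and is dense on hippocampal pyramidal neurons, was lower at 24 and 48 h with the arms pooled. Htr1a in TOL read 138 and 113 units (0 h), 151 and 125 (1 h), 109 and 124 (3 h), 107 and 102 (12 h), 97.1 and 93.6 (24 h) and 108 and 105 (48 h). Htr1a in SHAM read 131 and 119 units (0 h), 151 and 151 (1 h), 112 and 132 (3 h), 103 and 102 (12 h), 98.3 and 78.0 (24 h) and 87.2 and 98.9 (48 h). The groups at 24 and 48 h did not overlap those at 0 h. The pooled log2 difference was -0.45 ± 0.10 at 24 h (adjusted p = 0.00891) and -0.33 ± 0.10 at 48 h (adjusted p = 0.0394). The 24 h call was lost in 1 of 34 recomputed fits. The 48 h call was lost in 11 of 24 fits that left out an array, with an adjusted p of up to 0.154 without the first TOL array at 0 h, with the day as a block (0.170) and within days (0.136). By arm the F test passed in SHAM (0.0133) and not in TOL (0.147), where no single time passed (24 h, 0.132; 48 h, 0.410), and the interaction did not pass (0.885).

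Htr5b, a serotonin receptor that rodents express in hippocampus and habenula, had the largest fall among receptors above noise. Htr5b in TOL read 209 and 332 units (0 h), 319 and 348 (1 h), 237 and 276 (3 h), 64.6 and 117 (12 h), 99.1 and 62.9 (24 h) and 88.0 and 135 (48 h). Htr5b in SHAM read 330 and 317 units (0 h), 216 and 253 (1 h), 68.0 and 160 (3 h), 69.1 and 89.8 (12 h), 19.8 and 84.6 (24 h) and 47.9 and 133 (48 h). No array from 12 h on reached the lowest 0 h array, and 1 SHAM array at 24 h was below noise. The pooled level was 85.0 ± 23.7 units at 12 h, 66.6 ± 34.6 at 24 h and 101 ± 41.8 at 48 h, against 297 ± 58.9 at 0 h (SD, n = 4). It was 3.53-fold lower at 12 h (adjusted p = 0.0166), 4.28-fold lower at 24 h with the dim array set to the noise level (adjusted p = 0.00236), and 3.12-fold lower at 48 h (adjusted p = 0.0184). The 12 h call was lost without the first SHAM array at 12 h (0.0605), the first TOL array at 12 h (0.0586) or the second TOL array at 0 h (0.0543). The 48 h call was lost without the first SHAM array at 48 h (0.0809), the first TOL array at 48 h (0.0646) or the second TOL array at 0 h (0.0544). By arm the F test passed in SHAM (0.0291) and not in TOL (0.0884), and the difference between the time courses did not pass (interaction adjusted p = 0.857).

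Adra1d, the adrenergic receptor with the brightest probe set of its family, rose at 12 h. Adra1d in TOL read 334 and 225 units (0 h), 332 and 283 (1 h), 239 and 271 (3 h), 541 and 569 (12 h), 318 and 303 (24 h) and 497 and 528 (48 h). Adra1d in SHAM read 307 and 278 units (0 h), 294 and 291 (1 h), 317 and 527 (3 h), 490 and 308 (12 h), 255 and 266 (24 h) and 239 and 295 (48 h). Both TOL arrays at 12 and 48 h stood above every other TOL array, while in SHAM 1 array at 3 h and 1 at 12 h stood out from its replicate, and the pooled groups at 12 and 0 h overlapped. The pooled level was 477 ± 117 units at 12 h, against 286 ± 47.0 at 0 h (log2 0.71 ± 0.18, 1.64-fold, adjusted p = 0.0185). It was lost without the second array of TOL at 0 h (0.0669) or at 12 h (0.0540), or without the first SHAM array at 12 h (0.0827) or the second at 0 h (0.0612). In TOL it was 2.02-fold higher at 12 h (adjusted p = 0.0373) and 1.87-fold higher at 48 h (0.0441). The first TOL array at 0 h was hybridised on the other day, and both TOL calls were lost with the day as a block (0.0794 and 0.0781) and with the replicate number as a block (0.0501 and 0.0559). The F test passed pooled (0.0369) and in TOL (0.0213) but not in SHAM (0.212), and the interaction did not pass (0.321). The pooled F call was lost with the day as a block (0.0557) and in 16 of 24 fits that left out an array, with an adjusted p of up to 0.115 without the first SHAM array at 12 h. The second Adra1d probe set, with a mean of -11.1 units and 6 arrays above noise, also passed the pooled F test (adjusted p = 0.0261). Its fitted log2 difference at 12 h went the other way, at -3.59. The rise of Adra1d is thus a result of the chosen probe set alone.

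Htr2a, a phospholipase C-coupled serotonin receptor, passed the pooled F test (adjusted p = 0.0483) with no single time passing. Htr2a in TOL read 86.5 and 42.8 units (0 h), 69.1 and 87.7 (1 h), 60.7 and 68.7 (3 h), 53.1 and 47.3 (12 h), 47.2 and 43.5 (24 h) and 59.1 and 58.4 (48 h). Htr2a in SHAM read 55.2 and 78.0 units (0 h), 72.6 and 84.6 (1 h), 77.9 and 69.3 (3 h), 46.4 and 42.6 (12 h), 38.7 and 60.4 (24 h) and 51.3 and 56.1 (48 h). The 0 h arrays spanned nearly the whole range, and 12 and 24 h were the lowest times, at 47.3 ± 4.32 and 47.5 ± 9.30 units pooled, against 65.6 ± 20.1 at 0 h. The call was lost in 20 of 24 fits that left out an array, with an adjusted p of up to 0.110 without the second TOL array at 1 h.

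**Figure D3:**
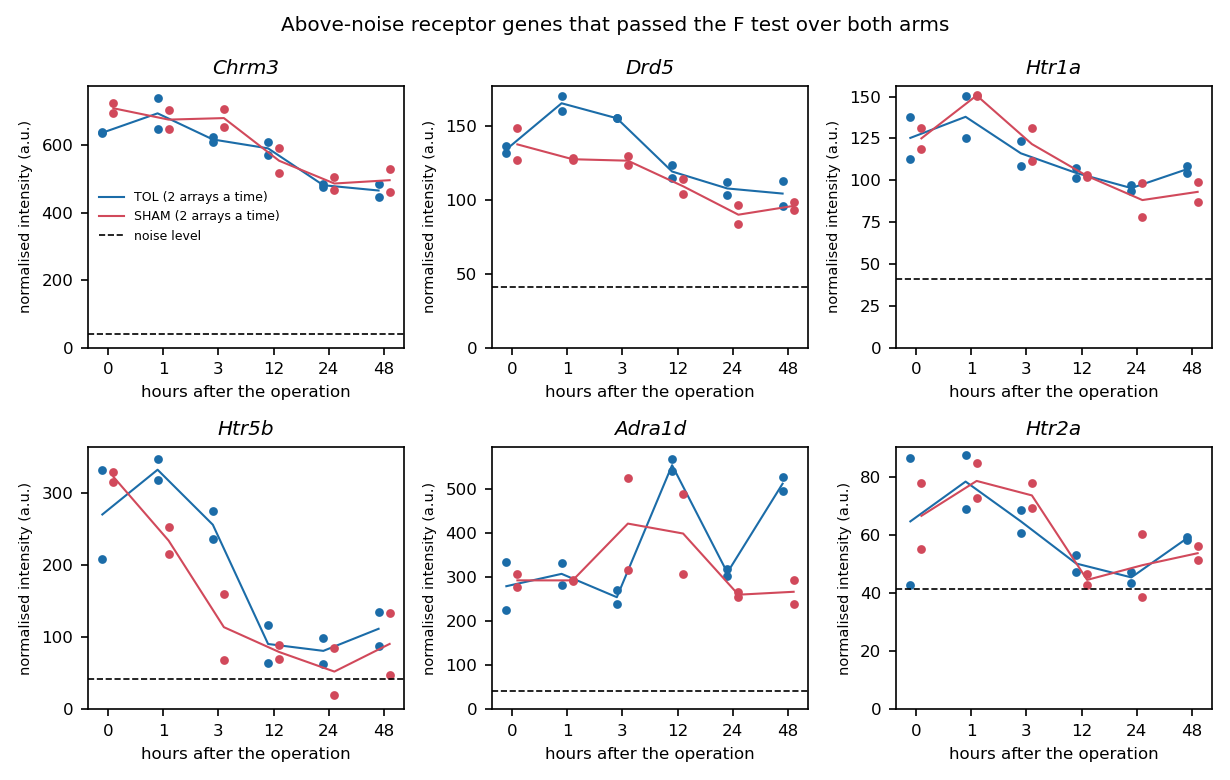
Normalised intensity, in arbitrary units, against hours after the operation (evenly spaced, not to scale) for the 6 receptor genes above noise that passed the pooled F test; dots are arrays, lines join the means of 2 arrays for TOL (blue) and SHAM (red), and the dashed line is the noise level of 41.2 units. Chrm3, Drd5, Htr1a and Htr5b lie lower at 24 and 48 h than at 0 h in both arms, and Adra1d peaks at 12 h in TOL.

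Another 3 receptors passed at a single time without passing an F test. Chrm5, a phospholipase C-coupled muscarinic receptor, read 170 and 172 units in TOL and 130 and 132 in SHAM at 48 h, against 212 and 183 in TOL and 190 and 198 in SHAM at 0 h. These groups did not overlap, and the pooled log2 difference was -0.38 ± 0.11 (1.31-fold lower, adjusted p = 0.0290). The call was lost in 7 of 24 fits that left out an array, with an adjusted p of up to 0.105 without the first TOL array at 0 h, with the day as a block (0.156) and within days (0.158). Chrna2 read 103 and 93.4 units in TOL and 85.5 and 98.7 in SHAM at 48 h, against 165 and 114 in TOL and 148 and 132 in SHAM at 0 h. All 4 later arrays lay below the 4 earlier ones, with a log2 difference of -0.55 ± 0.16 (1.46-fold lower, adjusted p = 0.0264). It was lost without the first array of SHAM at 0 h (0.0746), SHAM at 48 h (0.0854) or TOL at 0 h (0.115), or the second of TOL at 48 h (0.0707), with the day as a block (0.157) and within days (0.126).

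Adra2a, an adrenergic receptor that lowers cyclic AMP, was called lower at 48 h in SHAM alone, where it was 1 of 4 such calls. It read 255 and 266 units in TOL and 194 and 182 in SHAM at 48 h, against 294 and 252 in TOL and 286 and 360 in SHAM at 0 h. The SHAM groups did not overlap, and the TOL groups did. The SHAM difference was -0.77 ± 0.20 on the log2 scale (1.70-fold lower, adjusted p = 0.0238), and that of the pooled arms did not pass (-0.42 ± 0.14, adjusted p = 0.0507). The SHAM call was lost without the second SHAM array at 0 h (0.161) or either SHAM array at 48 h (0.0823 and 0.102). The second of these was hybridised on the other day, and the call was lost with the day as a block (-0.69, 0.0855) and within days (0.108). The difference between the 2 time courses was not past the threshold (interaction adjusted p = 0.571).

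Chrna4 passed the pooled F test with the smallest adjusted p of the receptors (1.7e-05), but no array lay above noise. At 24 h it read -31.3 and -54.8 units in TOL and -8.69 and -50.3 in SHAM, against 35.8 and 17.5 in TOL and 41.1 and 19.9 in SHAM at 0 h. The arrays at 12 and 24 h, all below 0, lay under all at 0 h, and no fold is given since both times are below noise. The floor of the fit set all arrays at 12 and 24 h to the same value, so the small p does not reflect their spread. The F test of Chrna4 passed in TOL (0.000731) and in SHAM (0.000603), beside 11.7% and 15.7% of all probe sets called. By arm, 5 receptors passed in TOL and 6 in SHAM, or 11.9% and 14.3% of those tested. Single tests in TOL called Adra1d higher (background 2.51%) and Chrna4 lower (1.96%) at 12 h. They called Chrm3, Chrna3 and Chrna4 lower at 24 h (3.07%), and Adra1d higher (4.19%) and Chrm3 and Chrna4 lower (3.31%) at 48 h. In SHAM they called Chrna3 higher at 3, 24 and 48 h (1.4%, 5.01% and 6.13%) and Chrna4 lower at 12 h (2.74%). At 24 h Chrm3, Drd5, Htr1a, Htr5b and Chrna4 were called lower in SHAM (4.1%), and at 48 h Chrm3, Drd5, Chrm5 and Adra2a (6.23%).

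Of these single-arm calls, those of Chrna4 held in all 24 fits that left out an array, and with the floor at the noise level Chrna4 could not be tested. In these Chrna4 calls both arrays of the later group were below the floor of the fit and were set to it. They had no spread in the fit, though their SD was 16.6 (TOL, 24 h) to 44.8 units (TOL, 48 h). The small p-values and the stability of the Chrna4 calls thus do not reflect array-to-array spread at those times. Every other single-arm call was lost in at least 1 of the 24 fits. In TOL, Adra1d lost its call in 5 fits at 12 h and 17 at 48 h (adjusted p of up to 0.183 and 0.234, both without the second array at 0 h). Chrm3 lost it in 10 fits at 24 h (up to 0.188, without the second array at 24 h) and 3 at 48 h (up to 0.149, without the first array at 48 h). The 24 h call of Chrm3 in TOL was also lost with the day as a block (0.0664), within days (0.152) and with the replicate number as a block (0.0577), and its 48 h call within days (0.104). In SHAM, Chrm3 lost it at 24 h without the second array at 0 h (0.0527) or at 24 h (0.0525), and at 48 h without the second at 0 h (0.0593) or the first at 48 h (0.0885). Drd5 lost it without the second array at 0 h (0.0525 at 24 h and 0.0988 at 48 h) or, at 48 h, the first at 48 h (0.0786). Htr1a lost it in 14 fits (up to 0.281, without the second array at 24 h), with the day as a block (0.0546) and with the replicate number as a block (0.0518). Htr5b lost it without the first array at 24 h (0.0751), and Chrm5 without any of the 4 arrays compared (0.0953 to 0.140), with the day as a block (0.110) and within days (0.108).

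The time courses of TOL and SHAM differed, by the interaction F test, for 1 receptor, Chrna3, a subunit best known from autonomic ganglia (adjusted p = 0.0172), beside 0.353% of all probe sets. Chrna3 in TOL read 43.6 and 44.9 units (0 h), 60.0 and 60.9 (1 h), 39.9 and 42.9 (3 h), 52.0 and 41.9 (12 h), 29.6 and 18.6 (24 h) and 42.4 and 42.9 (48 h). Chrna3 in SHAM read 24.1 and 23.9 units (0 h), 28.3 and 39.1 (1 h), 50.8 and 41.3 (3 h), 18.5 and 16.4 (12 h), 38.9 and 49.6 (24 h) and 50.5 and 39.3 (48 h). Of the 24 arrays, 13 were above the noise level, the highest at 60.9 units. At 12 h TOL was at least 1.13-fold higher than SHAM (adjusted p = 0.0143; 0.282% of all probe sets were called so). At 24 h TOL was at least 1.07-fold lower than at 0 h (0.0249). SHAM was called higher than at 0 h at 24 h (0.0236) and at 48 h (0.0193). At each of these times 1 of its 2 arrays was below noise, so no fold is given. Without an array these calls reached an adjusted p of 0.111 (12 h, without the second SHAM array at 12 h), 0.215 (TOL, without the second array at 24 h), 0.163 (SHAM, without the second array at 24 h) and 0.144 (SHAM, without the first array at 48 h). The SHAM call at 3 h was lost in 15 of 24 fits, with up to 0.181 without the first array at 3 h. With the day as a block the difference at 12 h had an adjusted p of 0.144 and the TOL call at 24 h 0.0858, and within days that TOL call had 0.106. With the day or the replicate number as a block the SHAM call at 3 h had 0.0568 and 0.0581. The interaction was lost without the second SHAM array at 12 h (0.0534) and with the floor raised to the 40th percentile (0.221) or to the noise level (0.309). The next receptors by interaction p did not pass: Htr2c (0.251), Adra1d (0.321), Chrnb2 (0.357) and Adra1b (0.552).

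**Figure D4:**
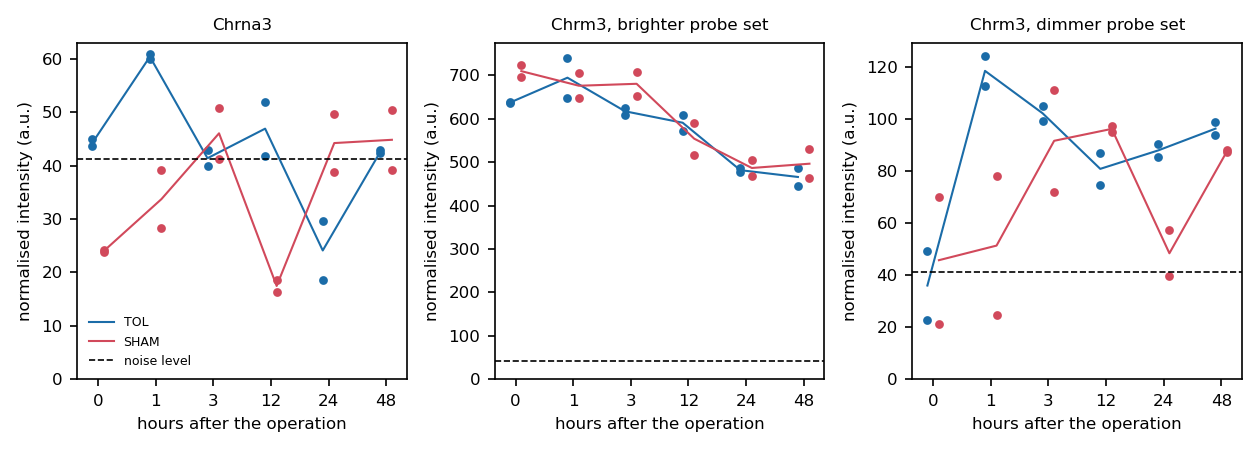
Normalised intensity, in arbitrary units, against hours after the operation (evenly spaced, not to scale) for Chrna3 and for the brighter and the dimmer probe set of Chrm3; dots are arrays, lines join the means of 2 arrays for TOL (blue) and SHAM (red), and the dashed line is the noise level of 41.2 units. Chrna3 stays within 16.4 to 60.9 units around the dashed line, and the dimmer Chrm3 probe set is higher at 48 h than at 0 h while the brighter one is lower.

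Averaged over the 6 times, 2 of the 42 receptors tested (4.76%) were called higher in TOL than in SHAM. That share is near the 4.72% of all probe sets. Drd5 averaged 131 ± 24.6 units in TOL and 115 ± 19.2 in SHAM (SD, n = 12), was higher in TOL at 5 of 6 times, and differed by 0.19 ± 0.05 on the log2 scale (adjusted p = 0.0279). The call was lost without the second TOL array at 1 h or the first at 24 h (0.0542). Chrna3 averaged 43.3 ± 11.6 units in TOL and 35.1 ± 12.4 in SHAM, with a fitted difference of 0.34 ± 0.09 (adjusted p = 0.0321), higher in TOL at 3 of 6 times. With the floor at the noise level the difference was 0.08 (adjusted p = 0.345), and at the 40th percentile 0.14 (0.149). It was lost in 13 of 24 fits that left out an array, with an adjusted p of up to 0.0649 without the first SHAM array at 24 h. With the day as a block the adjusted p was 0.998 for Drd5 and 0.980 for Chrna3, and arm and day can hardly be told apart. Without the 2 arrays hybridised on the other day from the rest of their arm it was 0.0364 and 0.0589.

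Chrnb2, the partner of Chrna4, came next and did not pass (adjusted p = 0.0562). Chrnb2 in TOL read -29.0 and 345 units (0 h), 230 and 209 (1 h), 200 and 238 (3 h), 240 and 131 (12 h), 120 and 113 (24 h) and -22.5 and 81.7 (48 h). Chrnb2 in SHAM read 4.73 and 133 units (0 h), -5.29 and -46.2 (1 h), -33.9 and -65.4 (3 h), -67.8 and -59.0 (12 h), 205 and 205 (24 h) and 167 and 55.8 (48 h). At 1, 3 and 12 h both TOL arrays were above noise and both SHAM arrays below 0, and at 0 h the replicates of each arm disagreed. The limma tests between the arms at 1, 3 and 12 h did not pass (adjusted p = 0.200, 0.179 and 0.192). The pooled difference of 2.39 at 24 h did not pass either (adjusted p = 0.239). The next by the mean difference were Chrna4 (0.132), Htr6 (0.142) and Adra1a (0.147), all below noise on average.

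With the chosen probe set, the other 16 receptors above noise passed no test. Among them Drd3 had a lowest, median and highest level of 494, 615 and 657 units in TOL and 537, 622 and 697 in SHAM, and its pooled log2 differences lay between -0.14 and 0.09. Chrng ranged from 385 to 492 units in TOL (median 445) and from 377 to 497 in SHAM (median 462), with differences of -0.14 to 0.03. Chrnb4 ranged from 331 to 490 units in TOL (median 443) and from 333 to 498 in SHAM (median 453). These 3 bright probe sets varied little between arrays, with standard errors of 0.08 to 0.12 on the log2 scale.

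Htr3a, the serotonin-gated channel subunit, had levels of 189 to 331 units in TOL (median 233) and 168 to 309 in SHAM (median 225), and its 48 h difference of -0.45 ± 0.16 came close to the threshold (adjusted p = 0.0594). Htr5a, Htr2b and Htr1d, with 116 to 146, 84.5 to 125 and 72.1 to 123 units in TOL and 107 to 199, 48.3 to 116 and 27.6 to 107 in SHAM, moved by -0.27 to 0.18 pooled. Chrm4, which lowers cyclic AMP, had 81.4 to 145 units in TOL and 99.6 to 163 in SHAM, with differences of -0.39 at both 24 and 48 h (adjusted p = 0.126 and 0.109). The second Chrm4 probe set, with a mean of 13.4 units and 3 arrays above noise, did pass the pooled F test (adjusted p = 0.000217). Its fitted log2 differences were 1.53, 1.74, -0.78, -1.05 and -0.85 at 1, 3, 12, 24 and 48 h. Chrm2, also cyclic AMP-lowering, had 18.8 to 195 units in TOL and 9.19 to 191 in SHAM, with 5 arrays below noise and a standard error of 0.90.

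Among adrenergic receptors, Adra2b had 105 to 254 units in TOL and 121 to 286 in SHAM, with its largest difference at 48 h (0.47 ± 0.22, adjusted p = 0.145). Adra2c had 33.2 to 105 units in TOL and 23.7 to 76.5 in SHAM, with -0.78 at 12 h and -0.72 at 24 h (adjusted p = 0.111 and 0.108). Adrb3 had 32.7 to 161 units in TOL and 38.6 to 170 in SHAM, with -0.80 at 24 h and -0.64 at 48 h (0.182 and 0.265). Drd1, with 39.1 to 83.3 units in TOL and 22.2 to 70.8 in SHAM, was higher by 0.40 and 0.43 at 1 and 3 h (0.566 and 0.421). Chrne had 51.3 to 143 units in TOL and 45.8 to 103 in SHAM, and Chrnd 35.1 to 75.3 and 25.6 to 72.2. None of these differences passed after adjustment, though those of Adra2c at 12 and 24 h and of Adra2b at 48 h had an unadjusted limma p of 0.0184, 0.0269 and 0.0493.

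Of the 23 receptors with a mean below noise, 2 are described above, 15 were tested and passed nothing, and 6 (Drd2, Drd4, Htr1b, Htr1f, Chrm1 and Chrnb1) were above the floor on both arrays of no group and were not tested. The 15 had means from -17.7 to 35.8 units and a smallest pooled F adjusted p of 0.0746, that of Chrna5, a nicotinic subunit. They include Htr4, Htr6, Htr7 and Htr2c, Chrna1, Chrna6, Chrna7, Chrna9 and Chrnb3, Adra1a, Adra1b and Adrb1, and Hrh1 and Hrh2. Some had single arrays well above noise: Adra1a reached 128 units, Htr6 113 and Adrb1 99.4, each with most arrays below it. Chrna5 had 3 of 4 arrays above noise at 3 h and 0 of 4 at 0 h, and limma did not call this pooled difference (adjusted p = 0.192). A change in the 15 could be missed at this signal.

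Counts of genes around the receptors are given beside the 27.5% of all probe sets that passed the pooled F test. Among enzymes and transporters that make, take up or break down the transmitters, 5 of 18 tested passed it (27.8%). Hnmt, which inactivates histamine, fell to 72.6 ± 10.0 units at 24 h, against 140 ± 19.0 at 0 h (SD, n = 4; log2 -0.95, adjusted p = 0.000201). Pts and Qdpr, which make and recycle the cofactor of the amine-making hydroxylases, and Slc18a1, below noise on every array, also passed. Of the 18, single tests called 2 lower and 1 higher at 24 h and 2 lower at 48 h. The median of the list was -0.24 at 24 h and -0.04 at 48 h.

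Of 14 G protein subunits tested, 6 passed the F test (42.9%). Over all 14, single tests at 48 h called 4 higher and 3 lower, and the median was 0.10. Gng5 averaged 774 ± 149 units at 48 h, against 578 ± 57.4 at 0 h (log2 0.41, adjusted p = 0.0181), and Gnai2, a subunit that lowers cyclic AMP, 1712 ± 236 against 1185 ± 178 (0.53, 0.0183). Gng10 and Gng7 were lower at 24 h (-0.48 and -0.53, adjusted p = 0.00551 and 0.00962). Of 20 effector enzymes tested, 4 passed (20%), and over all 20 the tests at 48 h called 1 higher and 2 lower, with a median of -0.16. Pde2a, which breaks down cyclic nucleotides, averaged 362 ± 43.9 units at 24 h, against 768 ± 49.3 at 0 h (-1.09, 6.26e-05). Plcb1, the phospholipase C that acts downstream of muscarinic receptors, averaged 610 ± 73.1 units at 48 h, against 1054 ± 108 at 0 h (-0.79, 0.000238). Pde4b rose at 24 h (0.56, 0.0175), and Adcy6 was below noise on 23 of 24 arrays.

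Of 10 genes of receptor desensitisation tested, 4 passed (40%), and over all 10 the tests at 48 h called 1 higher and 1 lower, with a median of -0.16. Rgs4, which shortens signalling by G proteins, averaged 597 ± 83.6 units at 48 h, against 301 ± 43.3 at 0 h (0.99, adjusted p = 0.00129), and Rgs14 455 ± 54.7 against 633 ± 21.2 (-0.48, 0.00482). Rgs12 rose at 12 h (0.58, 0.0179), and Grk1, known from the retina, rose at 24 h (0.32, 0.0158).

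Marker lists of the cell types in the tissue moved as well. The pooled F test passed 8 of 10 principal neuron markers (80%), 8 of 12 general neuronal (66.7%), 5 of 9 microglia (55.6%) and 2 of 8 astrocyte markers (25%). Of all probe sets, single tests called 8.23% lower at 24 h, and 10.2% lower and 10.7% higher at 48 h. Of 12 general neuronal markers, 4 fell at 24 h (median -0.25), and 6 fell and 1 rose at 48 h (median -0.25). Uchl1, a neuronal ubiquitin hydrolase, averaged 2070 ± 109 units at 24 h, against 2973 ± 117 at 0 h. Of 9 microglia markers tested, 5 had a mean above noise. At 48 h 6 of the 9 rose (median 1.19), and the summed level of the 9 was 1421 to 3150 units, against 571 to 748 at 0 h. C1qb, a complement subunit, averaged 1012 ± 318 units at 48 h and 233 ± 74.5 at 0 h. Of 8 astrocyte markers 1 rose and 1 fell at 48 h, Vim and Slc1a2, and of 6 oligodendrocyte markers none passed the F test (smallest adjusted p = 0.121, Cnp). Vascular markers passed for 2 of 9 (Tagln and Slco1a4) and blood cell markers for 3 of 6.

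Lists of cells that neighbouring tissue could add gave few calls. Of 5 choroid plexus markers none passed (smallest adjusted p = 0.142, Ttr), but the summed level ranged from 841 to 7025 units in TOL and from 698 to 6331 in SHAM, mostly through Ttr. None of 4 striatal markers passed (smallest adjusted p = 0.0544, Adora2a; summed level 1010 to 1436 units in TOL and 938 to 1344 in SHAM), and none of 7 muscle markers passed the F test (smallest adjusted p = 0.189, Myh2), with Myh4 lower at 48 h (adjusted p = 0.0428). Of 9 markers of monoamine and cholinergic cell bodies, 1 passed, Slc18a1, and Dbh, Slc6a4 and Slc18a2 averaged below noise. The part of these lists in the receptor values was not tested.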

How the data were processed

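The authors deposited an intensity for each probe set and array, linear and with background subtracted. The program behind it, and whether it scaled the arrays, is not given in the sources used here. Between 21.9% and 24.5% of an array's values were 0 or negative, and the 2% trimmed means ranged from 173 to 255. The 24 arrays were quantile normalised, floored at the 25th percentile (3.49 units) and taken to log2, and 59 Affymetrix controls were left out of 8799 probe sets. The 7092 whose replicates both exceeded the floor in some group were tested. The noise level is the 99th percentile of 1957 probe sets with a mean at or below 0. By the platform annotation 7018 probe sets have 1 gene, 308 several and 1473 none; all 48 symbols match RefSeq genes, and 37 have a promoter there. Every value column had a sample.

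In limma 3.58.1 (R 4.3.3) each group had its own mean, with 12 residual and 1.47 prior degrees of freedom. Tests are two-sided, with Benjamini-Hochberg adjustment across the 7092. Pooled tests average TOL and SHAM. Fold changes are ratios of geometric means of normalised values, with any array below noise set to the noise level. Where all arrays of 1 group are below noise they are lower bounds at the noise level. The fit was tested on simulated data. Figures used Python 3.11.15 and matplotlib 3.10.9. Named with values are receptors above noise or passing a test, up to 5 not passed where fewer than 5 pass, and up to 4 genes a list. The members and lists were chosen with earlier results of these data known. Numbers of experiments did not pair the arrays: 7 of 66 pairs of groups had deviations correlated above 0.1 (median r = -0.003).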

Additional observations from a re-analysis of the deposited data

Results flagged for a closer look

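Chrna3 is the receptor whose time course differed between TOL and SHAM (limma interaction F test, adjusted p = 0.0172). Both arrays of TOL at 24 h (29.6 and 18.6 units) and both of SHAM at 0 h (24.1 and 23.9) were below the noise level of 41.2 units. With the floor at the noise level the interaction at 24 h was -0.24 on the log2 scale and the F test did not pass (adjusted p = 0.309).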

How the results depend on the processing

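The deposited scale without normalisation shifts the median of all probe sets by 0.18 in SHAM at 48 h and by -0.36 and -0.28 in TOL at 12 and 48 h. On it the receptors called were 2 in the SHAM time course (6 as reported), 2 in TOL (5) and 5 pooled (8). They were 4 at single times (8), 0 in the mean difference (2) and 0 in the interaction (1). Single times in these counts, here and below, are those of the pooled arms. Raising the floor to the 40th percentile or to the noise level left 0 interaction calls. The day as a block left 0 mean differences, and leaving out the 2 arrays of the other day, an alternative chosen after the data were seen, gave 4. The inferred run as a random block gave 10 in SHAM. Leaving out each array gave 5 to 8 calls in SHAM, 4 to 7 in TOL, 6 to 9 pooled, 6 to 11 at single times, 0 to 3 for the mean difference and 0 to 2 for the interaction. With the replicate number as a block, calls were 6 in SHAM, 7 in TOL and 7 pooled; Adra1d (0.0512) and Htr2a (0.0647) lost the pooled F call. Members above noise numbered 36 with the noise level at the 95th percentile and 17 with the dimmest probe set of each gene. That choice turned Chrm3 to 1.35 (pooled, 48 h), 0.85 (pooled, 24 h), 0.30 and 1.18 (SHAM, 24 and 48 h) and 1.39 and 1.53 (TOL), and Adra1d to -3.59 (pooled, 12 h), -4.20 and -2.5 (TOL, 12 and 48 h). The causes were not tested. Of 1714 recomputed values of single genes, 1446 kept direction and call, 252 lost the call and 5 gained one. The pooled F calls of Chrm3, Drd5, Htr1a and Htr5b held without any single array. Signal over background limits the receptors near 41.2 units, and the number of arrays limits all.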
